A study of Homo sapiens with 38 samples.

Results

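D8 CT0.4 cells, exposed to the lowest dose of CT used in the series, were compared with D8 CT0.0 cells, which received no CT, after 8 days of neural induction. Membership followed the sample labels, and 4 of the 38 libraries belong to the comparison, 2 in each group. The cells are H9, an established human embryonic stem cell line of wild-type genotype, labelled at day 8 as neural progenitor cells. D8 CT0.4 cells received CT at 0.4 µM, and D8 CT0.0 cells received CT at 0.0 µM. CT is the WNT activator of the design, and the labels do not expand its name. The other 7 day 8 conditions, with 14 libraries, were IWP2 (a blocker of WNT secretion, at 2.0 µM), CT at 0.8, 1.0, 2.0, 3.0 and 4.0 µM, and CT4.0RA (CT at 4.0 µM with retinoic acid at 1.0 µM). D4 CT0.4 and D4 CT0.0 cells, with 2 libraries each, gave the same comparison at day 4. All groups come from this 1 line. The labels call the libraries biological replicates without saying whether they were separate differentiations, so p-values measure the spread between these libraries.

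The roof plate is the strip of glia-like cells at the dorsal midline of the neural tube. It secretes WNT and BMP family ligands that pattern the dorsal neural tube, and in the forebrain it gives rise to the cortical hem and to the choroid plexus, the epithelium that makes cerebrospinal fluid. WNT ligands stabilise beta-catenin, which acts with TCF and LEF factors on target genes, among them inhibitors of the pathway itself such as AXIN2. WNT activity also caudalises the neural plate, and factors of the telencephalon and eye field belong to its most rostral, WNT-poor end.

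Levels are TPM (a measure of transcript abundance that allows for transcript length and is brought to 1 common total per library). Changes are differences of mean log2(TPM + 1) ± SE between D8 CT0.4 and D8 CT0.0, which understate the change of low genes. Each adjusted p comes from the limma fit and the Benjamini-Hochberg method over 28221 tested genes. The fit shares the spread of each gene over all 19 groups. For a gene near 0 in most groups, the SE can therefore understate the gap between its D8 CT0.4 libraries. A gene was called higher or lower at an adjusted p under 0.05 and a log2 change of at least 1 in size. Of the tested genes, 1001 (3.55%) were called higher and 700 (2.48%) lower at D8 CT0.4. Among the 15533 protein-coding ones, 709 (4.56%) were higher and 446 (2.87%) lower. The 2 D8 CT0.4 libraries lay wholly above the D8 CT0.0 libraries for 998 of the 1001 genes, as they did for 25.2% of all tested genes, and wholly below for 698 of the 700, as for 21.7% of all tested genes. The median change of all tested genes was 0.

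**Figure D1:**
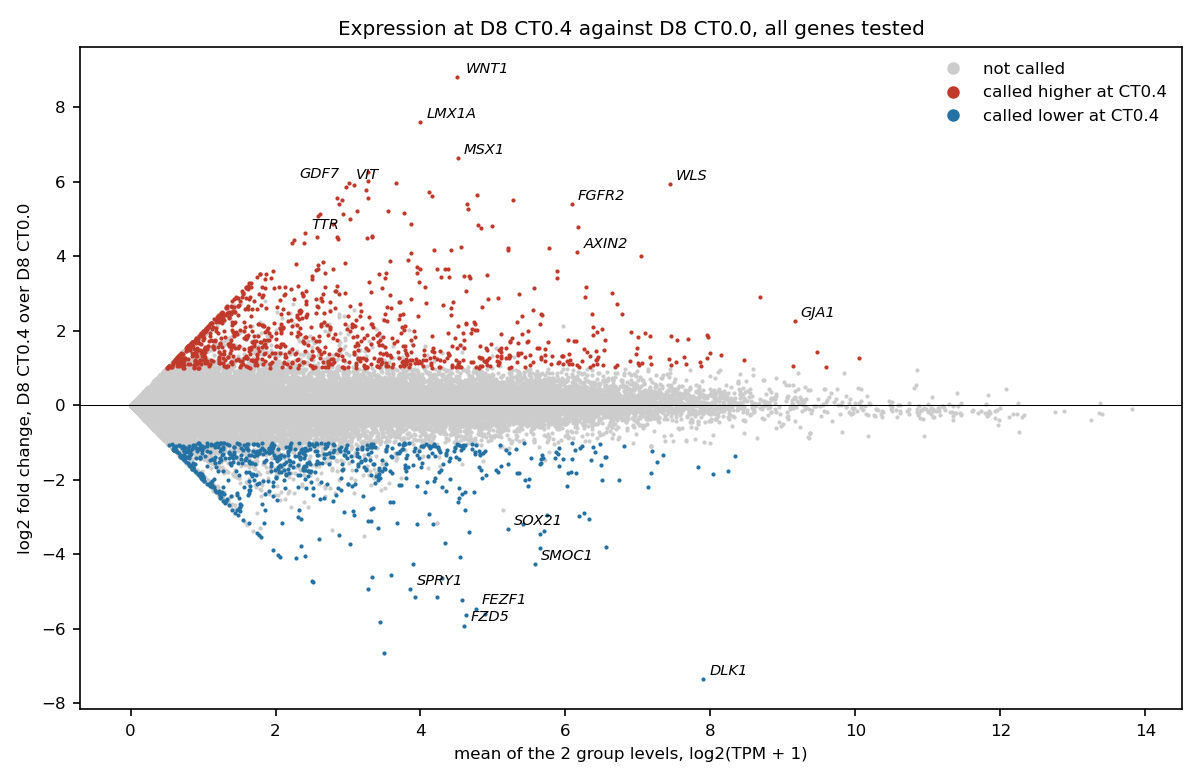
Difference between D8 CT0.4 and D8 CT0.0 (vertical axis, log2 scale) against the mean level of both groups (horizontal axis, log2(TPM + 1)), 1 point a gene, red for the 1001 called higher and blue for the 700 called lower. WNT1 (8.82) is the highest point and DLK1 (-7.34) the lowest, and LMX1A, MSX1 and WLS stand far above the bulk of genes.

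Correlation over log2(TPM + 1) between the 2 libraries of a group was 0.9579 for D8 CT0.4 and 0.9577 for D8 CT0.0. Both D8 CT0.0 libraries correlated slightly better with a D8 IWP2 library (0.9584 and 0.9594). Ribosomal protein genes, 86 in number, held 17.4% and 17.9% of TPM at D8 CT0.4 and 20.3% and 19.4% at D8 CT0.0. The 37 mitochondrial genes held 6.86% and 6.82% at D8 CT0.4 and 7.8% and 8.24% at D8 CT0.0. The part of these shares in the gene changes was not tested. Libraries were run on either of a pair of sequencer models that the labels do not tie to samples, and its part was not tested. TPM keeps no depth, so the number of reads behind a value is unknown.

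All 6 marker genes of the dorsal midline were far higher at D8 CT0.4. WNT1, the secreted ligand of the dorsal midline (chromosome 12, 48978453 to 48981676 of hg38, plus strand), stood at 547 and 420 TPM in the D8 CT0.4 libraries and at 0.137 and 0 TPM in the D8 CT0.0 libraries. This was the largest rise among protein-coding genes, 8.82 ± 0.23 (adjusted p = 4.8e-17). LMX1A, a LIM homeodomain factor needed for roof plate formation in the mouse (chromosome 1, 165201867 to 165356715, minus strand), had 278 and 170 TPM against 0.156 and 0.0932 TPM at D8 CT0.0, a change of 7.60 ± 0.25 (adjusted p = 1.5e-15). In neither gene did the groups come near each other. MSX1, a homeobox factor that BMP signals induce (chromosome 4, 4859666 to 4863936, plus strand), had 316 and 151 TPM at D8 CT0.4 and 1.46 and 0.993 TPM at D8 CT0.0. Its change was 6.63 ± 0.37 (adjusted p = 7.8e-12).

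GDF7, a BMP family ligand known in the mouse as a product of the roof plate (chromosome 2, 20666664 to 20679245, plus strand), had 76.7 and 54.1 TPM at D8 CT0.4 and 0.0588 and 0.092 TPM at D8 CT0.0. It rose by 5.93 ± 0.20 (adjusted p = 1.9e-15). AXIN2, the scaffold protein by which WNT signalling limits itself (chromosome 17, 65528563 to 65561647, minus strand), was the marker with the highest level without CT. It had 350 and 240 TPM at D8 CT0.4 against 21.1 and 11.6 TPM at D8 CT0.0, a change of 4.12 ± 0.24 (adjusted p = 1.5e-11). TTR, the thyroid hormone carrier that choroid plexus epithelium secretes (chromosome 18, 31557010 to 31599021, plus strand), had 41 and 13.4 TPM at D8 CT0.4 and was listed at 0 in both D8 CT0.0 libraries. Its difference in log2(TPM + 1) was 4.62 ± 0.28 (adjusted p = 3.3e-11), and no fold can be given against a group at 0. With TTR near 0 outside CT0.4 at day 8, that SE understates the gap between its 2 D8 CT0.4 libraries. All 6 markers were higher in replicate 1 of D8 CT0.4 than in replicate 2.

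**Figure D2:**
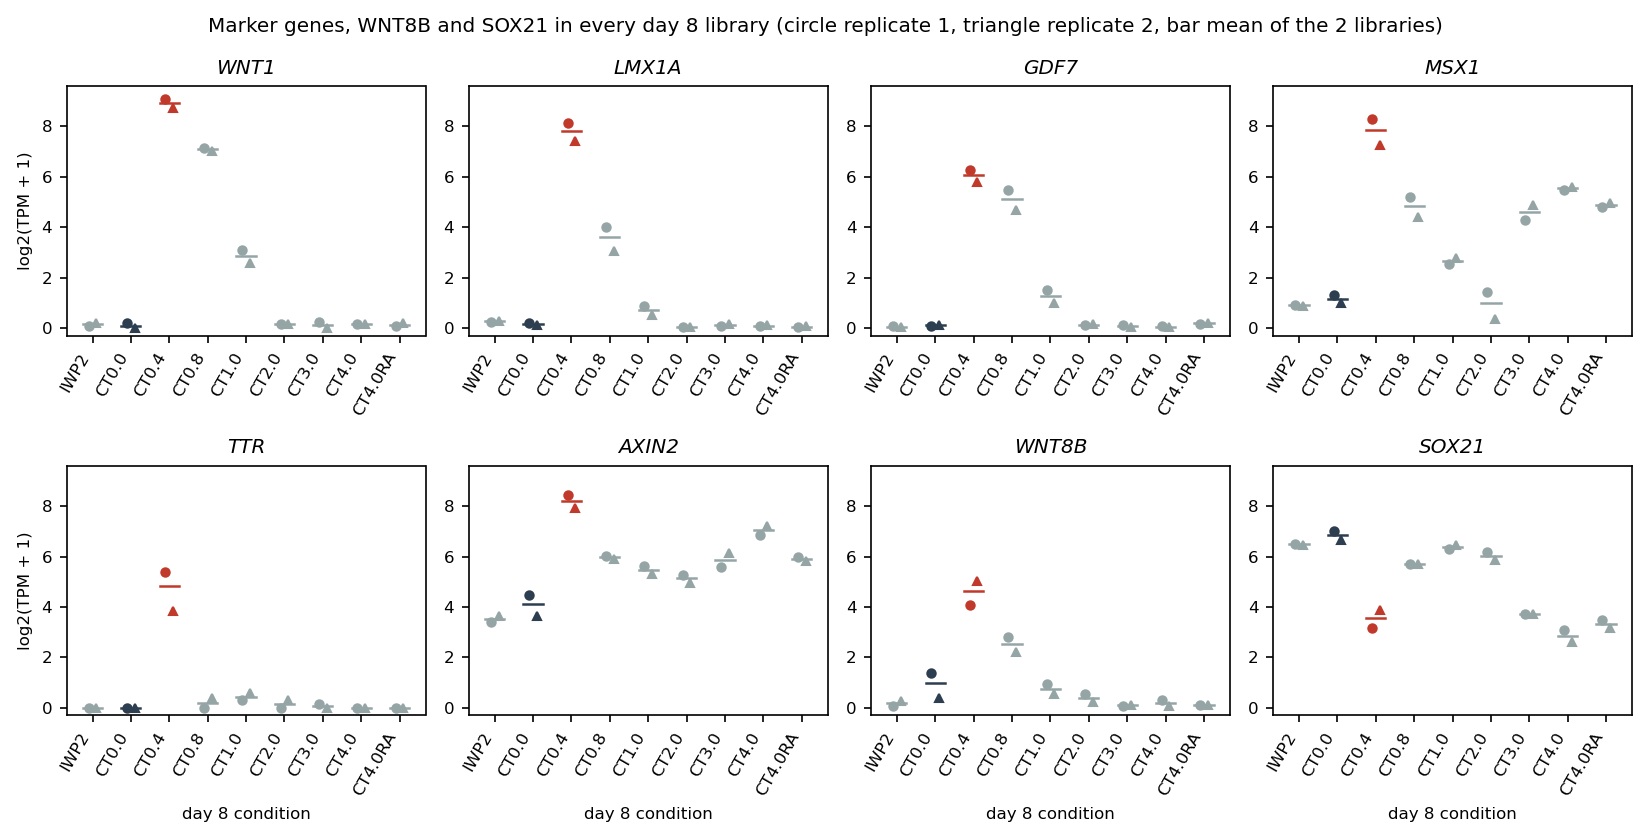
Level of the 6 markers, WNT8B and SOX21 in each of the 18 day 8 libraries (vertical axis, log2(TPM + 1); horizontal axis, condition), circles for replicate 1, triangles for replicate 2 and bars for the mean of 2 libraries, with CT0.4 in red and CT0.0 in dark blue. WNT1, LMX1A, MSX1, TTR, AXIN2 and WNT8B stand highest at CT0.4, GDF7 is close at CT0.4 and CT0.8, and SOX21 is low at CT0.4 and again from CT3.0 upward.

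The markers followed separate courses over the doses. Mean WNT1 was 0.0685 TPM at CT0.0, 484 TPM at CT0.4, 135 TPM at CT0.8 and 6.23 TPM at CT1.0, and under 0.2 TPM at every dose above that. Mean LMX1A was 0.125 TPM at CT0.0, 224 TPM at CT0.4, 11.1 TPM at CT0.8 and 0.637 TPM at CT1.0. GDF7 came closest to a plateau, with means of 65.4 TPM at CT0.4 and 34.0 TPM at CT0.8, and the difference of 0.95 between these doses was under the size asked of a call (adjusted p = 0.0012). MSX1 and AXIN2 were higher again at the doses above CT2.0. Mean MSX1 was 234 TPM at CT0.4, 0.969 TPM at CT2.0, 23.3 TPM at CT3.0 and 45.7 TPM at CT4.0. Mean AXIN2 was 295 TPM, 34.1 TPM, 58.0 TPM and 132 TPM at the same doses. TTR did not exceed 0.484 TPM in any day 8 library outside CT0.4. GDF7 is thus the 1 marker that CT0.4 did not hold apart from all 8 other day 8 conditions.

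Of 19 WNT ligand genes, 14 were tested, of which 8 were called higher, 2 lower and 4 did not pass, with a median change of 2.15 against 0 for all tested genes. The summed level of the 19 genes was 1094 and 875 TPM at D8 CT0.4 and 183 and 173 TPM at D8 CT0.0. WNT10B had 95.1 and 74.6 TPM at D8 CT0.4 and 0.0491 and 0.147 TPM at D8 CT0.0, a change of 6.28 ± 0.28 (adjusted p = 1.5e-13). WNT3A and WNT2B, which mark the cortical hem in the mouse, rose too. WNT3A had 73.3 and 46.1 TPM against 0.0266 and 0 TPM at D8 CT0.0 (5.87 ± 0.22, adjusted p = 1.1e-14), and WNT2B had 225 and 161 TPM against 2.39 and 3.31 TPM (5.65 ± 0.23, adjusted p = 2.5e-14). WNT4 had 67.4 and 62.8 TPM against 0.166 and 0.674 TPM at D8 CT0.0 (5.56 ± 0.31, adjusted p = 8.6e-12), the closest pair of D8 CT0.4 libraries among these ligands.

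WNT8B, a hem ligand that the series title names, had 16 and 31.5 TPM at D8 CT0.4 and 1.6 and 0.317 TPM at D8 CT0.0 (3.67 ± 0.27, adjusted p = 9.6e-10). It was the only one of the 8 called ligands that was higher in replicate 2 of D8 CT0.4 than in replicate 1. WNT9A and WNT9B made up the 8, with changes of 2.13 and 2.17. The 2 ligands that fell were WNT7B (5.15 and 11.9 TPM at D8 CT0.4, 44.4 and 41.3 TPM at D8 CT0.0, -2.30 ± 0.23) and WNT5B (27.5 and 40.6 TPM at D8 CT0.4, 123 and 118 TPM at D8 CT0.0, -1.82 ± 0.22). The groups did not overlap for either. All 8 ligands that rose were also called higher at D8 CT0.4 than in each of the other 7 day 8 conditions. WNT3 and WNT5A did not pass, with changes of 0.85 and 0.79, and passed when replicate 2 (WNT3, 1.31) or replicate 1 (WNT5A, 1.15) of D8 CT0.4 was left out. WNT2, WNT6 and WNT10A were listed at 0 in all 4 libraries.

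Genes that help WNT proteins out of the cell or amplify their signal moved in the same direction in 5 of 9 cases and fell in 1, with a median of 1.12. WLS, the carrier that takes WNT proteins to the cell surface, had 1535 and 1149 TPM at D8 CT0.4 and 27.8 and 15.1 TPM at D8 CT0.0. Its change was 5.95 ± 0.28 (adjusted p = 4.4e-13), and the groups lay far apart. The R-spondins, secreted amplifiers of WNT signals, rose by 3.40 ± 0.24 for RSPO3 (adjusted p = 3.5e-10), 3.08 ± 0.27 for RSPO2 (adjusted p = 1.5e-08) and 1.12 ± 0.21 for RSPO1 (adjusted p = 0.00064). LGR5, one of their receptors, rose by 1.61 ± 0.26 (adjusted p = 0.00011), whereas LGR4, the more abundant receptor at 109 and 98.6 TPM against 88.3 and 82.8 TPM at D8 CT0.0, changed by 0.27 and did not pass.

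Feedback and target genes of the WNT pathway gave 8 called higher and 2 called lower of 17 tested, with a median of 0.92. APCDD1, a membrane inhibitor of WNT signalling, had 188 and 140 TPM at D8 CT0.4 and 2.92 and 2.7 TPM at D8 CT0.0 (5.42 ± 0.27, adjusted p = 9.7e-13). SP5, a zinc finger factor widely used as a readout of WNT activity, had 23.6 and 22.1 TPM against 0.222 and 0.102 TPM at D8 CT0.0 (4.36 ± 0.52, adjusted p = 1.6e-06). BAMBI, a pseudoreceptor that dampens BMP and TGF-beta signals, had 22.5 and 14.1 TPM against 0.759 and 0.602 TPM (3.49 ± 0.23, adjusted p = 1.6e-10). Each of the 3 had no overlap between groups. NKD1, an inhibitor that binds Dishevelled, rose by 2.67 ± 0.24, while its paralogue NKD2 fell by 1.56 on the log2 scale, with 1.89 and 3.46 TPM at D8 CT0.4 against 10.4 and 8.78 TPM at D8 CT0.0. LEF1, a transcription factor partner of beta-catenin, CCND1, a G1 cyclin, and ZNRF3, a ligase that removes WNT receptors, were below the size asked of a call, with changes of 0.59, 0.68 and 0.92. ZNRF3 passed without replicate 2 of D8 CT0.4 (1.02).

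SP5 and AXIN2 did not share a dose course. Mean SP5 was 0.162 TPM at CT0.0, 22.9 TPM at CT0.4, 18.9 TPM at CT0.8, 0.842 TPM at CT2.0 and 168 TPM at CT4.0. It was therefore highest at CT4.0, where AXIN2 was under its CT0.4 level. The 250 bases ahead of the RefSeq start (build GRCh38.p14) are shown for SP5, a target gene that rose, and for WNT1, the ligand that rose most. The motifs CTTTGAT and CTTTGAA, which TCF and LEF factors bind, were searched on both strands, and matches are in capitals as they read on the printed strand. The SP5 window is chr2:170715087-170715336 and the WNT1 window is chr12:48978072-48978321, both on the plus strand.
SP5: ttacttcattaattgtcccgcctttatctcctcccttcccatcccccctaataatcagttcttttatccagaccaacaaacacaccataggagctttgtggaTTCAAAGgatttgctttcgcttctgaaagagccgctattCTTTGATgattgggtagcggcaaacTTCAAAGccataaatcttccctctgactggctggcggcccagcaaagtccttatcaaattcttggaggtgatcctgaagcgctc
WNT1: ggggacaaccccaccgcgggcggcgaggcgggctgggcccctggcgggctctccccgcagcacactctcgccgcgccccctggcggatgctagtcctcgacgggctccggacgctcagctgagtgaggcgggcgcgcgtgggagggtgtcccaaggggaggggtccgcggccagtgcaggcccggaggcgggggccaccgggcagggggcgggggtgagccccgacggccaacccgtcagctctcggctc
The SP5 window holds 3 matches, which begin 148, 109 and 84 bases before the start and do not overlap each other, and the WNT1 window holds none of these letters. Of 12 WNT feedback genes with a window, 3 hold a match, SP5, DKK1, which did not pass (0.74), and SP8, which was called lower (-1.16). DKK1 passed with a pseudocount of 0.1 (2.87), and SP8 did not without replicate 1 of D8 CT0.4 (-0.90). Of all 35116 RefSeq windows of this length, 2086 (5.94%) hold at least 1 match. By gene, matches were found for 33 of 514 genes called higher (6.42%), 22 of 315 called lower (6.98%) and 660 of all 11764 tested protein-coding genes with a window (5.61%), so the called genes stood close to the background. Among genes called higher at CT0.4 than in every other day 8 condition, 9 of 191 with a window held a match (4.71%). Of the 4 marker genes with a window, 0 did. A match is a description of the letters and not a binding site.

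Secreted WNT antagonists did not move as a group, with 2 higher and 2 lower of 9 tested and a median of -0.29. FRZB, a Frizzled-related protein that binds WNT ligands, had 9.54 and 7.19 TPM at D8 CT0.4 and 60.6 and 66.6 TPM at D8 CT0.0 (-2.80 ± 0.24, adjusted p = 9.4e-09). SFRP1, of the same family and more abundant, had 147 and 145 TPM against 274 and 280 TPM at D8 CT0.0, and its change of -0.92 was just under the size asked of a call. DKK3, a member of the Dickkopf family, rose by 1.27 ± 0.17 (adjusted p = 6.7e-06), and SOSTDC1, which antagonises BMP as well as WNT signals, by 1.01 ± 0.27 (adjusted p = 0.012). The SOSTDC1 call was lost with TMM scaling (0.94), without replicate 1 of D8 CT0.4 (0.63) and without replicate 1 of D8 CT0.0 (0.77). It was also lost in limma with a pseudocount of 0.1 (1.21, adjusted p = 0.32).

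Transcription factors of the roof plate and dorsal neural tube gave the highest share of calls higher of any list, with 12 of 14 called higher and 1 lower and a median of 3.33. PAX3, a paired-box factor of the dorsal neural tube, had 166 and 139 TPM at D8 CT0.4 and 4.49 and 1.83 TPM at D8 CT0.0 (5.28 ± 0.33, adjusted p = 4e-11). Its paralogue PAX7 had 26.8 and 16.2 TPM against 0.0142 and 0 TPM at D8 CT0.0 (4.44 ± 0.21, adjusted p = 4.5e-13). LMX1B, the paralogue of LMX1A, had 48.7 and 25.9 TPM against 0.135 and 0.384 TPM (4.87 ± 0.33, adjusted p = 2.5e-10). PAX7 and LMX1B were under 0.4 TPM in both D8 CT0.0 libraries, and no group overlapped. ZIC1, a dorsal zinc finger factor, was expressed in both groups, at 334 and 221 TPM in D8 CT0.4 and 23 and 46.3 TPM in D8 CT0.0 (3.01 ± 0.43, adjusted p = 1.7e-05). MSX2, a relative of MSX1, rose by 4.53.

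BMP and GDF ligands rose in 5 of 9 tested cases, with a median of 3.41. GDF6 had 58.1 and 33.2 TPM at D8 CT0.4 and 0.927 and 1.02 TPM at D8 CT0.0 (4.51 ± 0.21, adjusted p = 3.9e-13). BMP4 had 54.8 and 34.1 TPM against 1.25 and 3.02 TPM at D8 CT0.0 (3.88 ± 0.42, adjusted p = 3.9e-07). BMP2 and BMP7, which is a broad dorsal and epidermal ligand, rose by 3.55 ± 0.21 and 3.41 ± 0.22. None of the tested ligands was called lower in limma, and 1 had an unadjusted p under 0.05 in that direction. BMP5 and BMP8B, at no more than 2.4 TPM in the 4 libraries, did not pass (0.95 and -0.61). BMP5 passed without replicate 1 of D8 CT0.0 (1.14) or replicate 2 of D8 CT0.4 (1.11). With a pseudocount of 0.1 BMP5 was called higher (adjusted p = 0.0075) and BMP8B lower (-1.11, adjusted p = 0.031).

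Genes that respond to BMP rose in 9 of 14 cases, with a median of 1.42, and none was called lower or had an unadjusted p under 0.05 in that direction. ID1, a helix-loop-helix inhibitor that BMP signals switch on, had 177 and 140 TPM at D8 CT0.4 and 8.3 and 6.73 TPM at D8 CT0.0 (4.23 ± 0.31, adjusted p = 7.6e-10). ID3, of the same family, had 199 and 215 TPM against 16.7 and 15.1 TPM (3.62 ± 0.17, adjusted p = 3.9e-13). NOG, which binds BMP ligands and blocks them, rose with them, at 39 and 25.7 TPM in D8 CT0.4 and 2.52 and 2.82 TPM in D8 CT0.0 (3.16 ± 0.22, adjusted p = 3.8e-10). SMAD9, a receptor-activated SMAD of the BMP branch, rose by 2.49 ± 0.23. ID4 had near equal levels, 68.9 and 66.8 TPM at D8 CT0.4 and 67.4 and 53.9 TPM at D8 CT0.0. In these bulk libraries more cells of a kind and more RNA per cell cannot be told apart, for these genes and for all others.

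Choroid plexus genes were split, with 5 called higher, 2 lower and 9 not called of 16 tested and a median of 0.54. Beside TTR, the gene that rose most was ENPP2, the secreted enzyme autotaxin, at 178 and 116 TPM in D8 CT0.4 and 5.35 and 3.55 TPM in D8 CT0.0 (4.75 ± 0.27, adjusted p = 1.3e-11). TRPM3, a cation channel of the choroid plexus, had 59.6 and 47.6 TPM against 13.8 and 10.9 TPM (2.04 ± 0.19, adjusted p = 2.3e-08). CLIC6, a chloride channel protein of that epithelium, had 2.63 and 2.89 TPM against 0.474 and 0.177 TPM (1.51 ± 0.16, adjusted p = 3.6e-07). All 3 were called higher at CT0.4 than in every other day 8 condition. Other members did not rise. HTR2C, a serotonin receptor, fell to 0.174 and 0.233 TPM at D8 CT0.4 against 9.45 and 10 TPM at D8 CT0.0 (-3.16 ± 0.22, adjusted p = 3.6e-10), AQP1, a water channel, stood at 1.8 and 2.29 TPM against 1.45 and 1.51 TPM (0.29 ± 0.33), and KL was listed at 0 in all 4 libraries. OTX2, needed for choroid plexus formation in the mouse and for the forebrain and midbrain more widely, was high in both groups and did not pass, with 413 and 403 TPM at D8 CT0.4 and 287 and 254 TPM at D8 CT0.0. TTR is also a product of endoderm, and 13 of the 14 endoderm and yolk sac genes were under 1 TPM in all 4 libraries, with SOX17, APOA2 and FGB at 0. Of the 4 endoderm genes tested, limma called none, and none had an unadjusted p under 0.05. AFP had 0 and 0.146 TPM at D8 CT0.4 and 0.673 and 0.536 TPM at D8 CT0.0.

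The list of secreted and matrix proteins of the roof plate, which also holds NTN1 of the ventral midline, gave 4 higher and 1 lower of 14. Its median was 0.21. GJA1, the gap junction protein connexin 43, had 1322 and 1186 TPM at D8 CT0.4 and 269 and 251 TPM at D8 CT0.0 (2.26 ± 0.09, adjusted p = 1.7e-14), with the smallest SE of the named genes that rose by more than 2. SLIT2 and SLIT3, repellents of growing axons, rose by 3.42 ± 0.25 and 3.39 ± 0.26. SLIT3 was called higher at CT0.4 than in each other day 8 condition, and SLIT2 was not, with a difference of 0.84 from CT3.0. NTN1, the axon attractant netrin-1 of the ventral midline, fell to 0.594 and 1.83 TPM at D8 CT0.4 against 4.45 and 6.78 TPM at D8 CT0.0 (-1.62 ± 0.28, adjusted p = 2e-04).

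**Figure D3:**
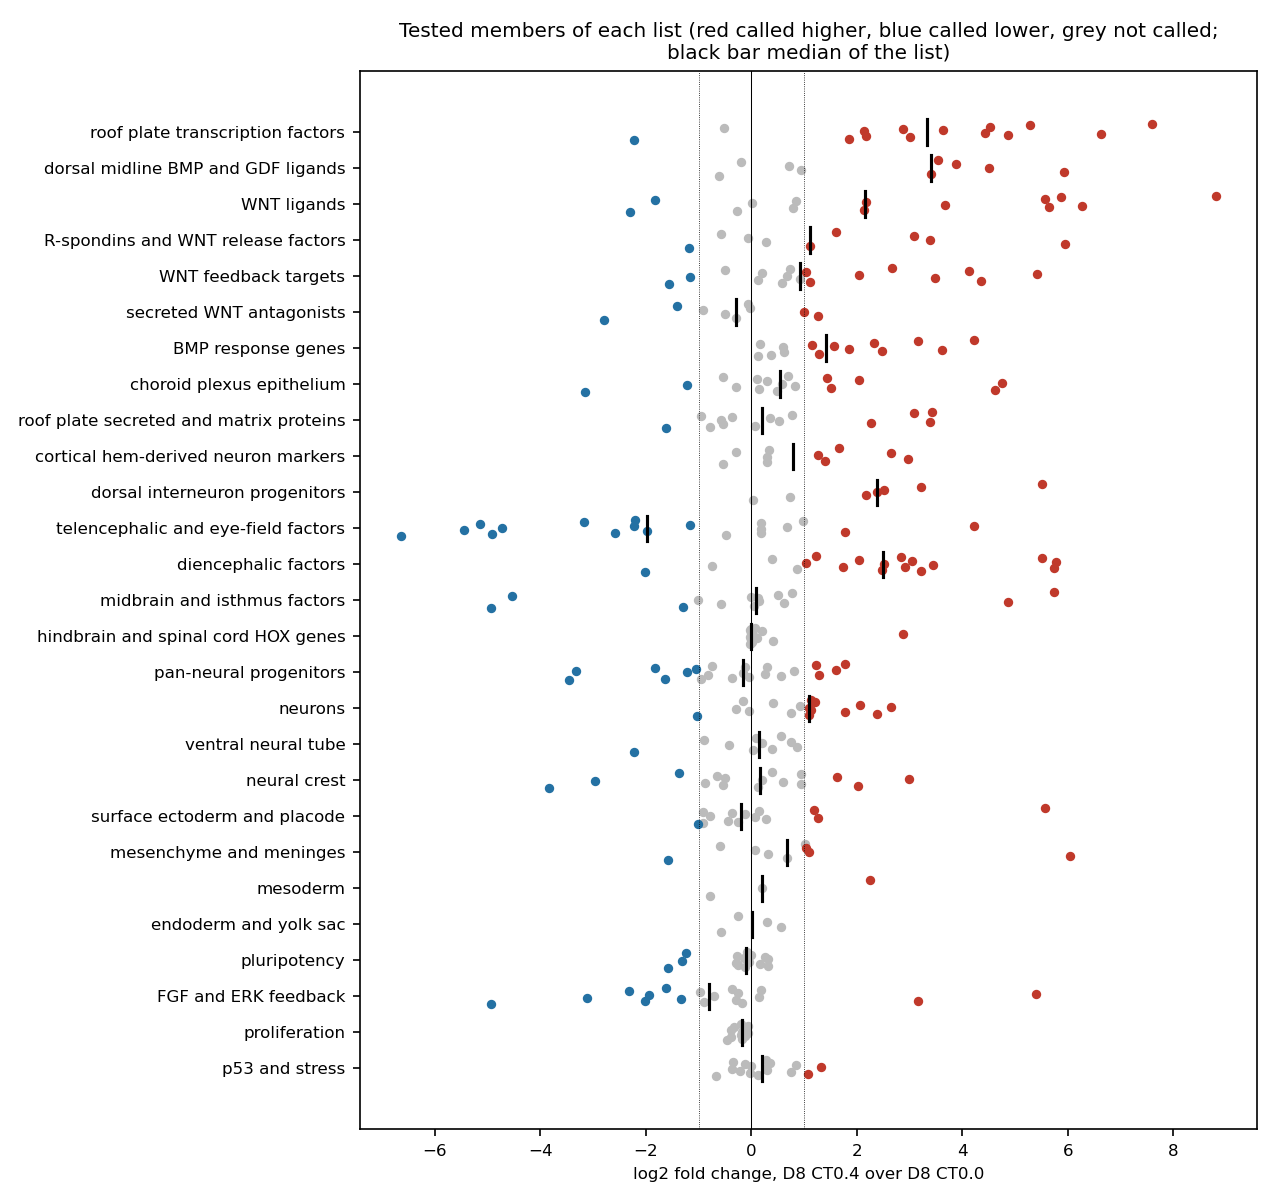
Log2 change at D8 CT0.4 against D8 CT0.0 of every tested member (1 point a gene) of the 27 gene lists, red where called higher, blue where called lower and grey where not called, with the list median as a black bar. Roof plate factors (median 3.33), BMP and GDF ligands (3.41), dorsal interneuron progenitors (2.38), diencephalic factors (2.49) and WNT ligands (2.15) lie to the right, and telencephalic and eye-field factors (-1.99) to the left.

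Factors of the telencephalon and eye field fell in 11 of 19 tested cases and rose in 2, with a median of -1.99. FEZF1, a rostral forebrain zinc finger factor, had 2.92 and 3.27 TPM at D8 CT0.4 and 193 and 165 TPM at D8 CT0.0 (-5.45 ± 0.33, adjusted p = 2.4e-11). LHX2 had 2.54 and 0.729 TPM against 85.7 and 87.2 TPM (-5.14 ± 0.35, adjusted p = 2e-10). The losses extended to the eye-field factors SIX3 (0.986 and 0.528 TPM at D8 CT0.4, 46 and 58.2 TPM at D8 CT0.0, -4.92 ± 0.20) and RAX (0.135 and 0.0266 TPM at D8 CT0.4, 36.4 and 20.6 TPM at D8 CT0.0, -4.72 ± 0.21). The 2 members that rose were OTX1, of forebrain and midbrain, and PAX6, of forebrain and dorsal progenitors. OTX1 had 229 and 239 TPM at D8 CT0.4 against 13.3 and 10 TPM at D8 CT0.0 (4.23 ± 0.26, adjusted p = 4.3e-11), and PAX6 had 353 and 406 TPM against 126 and 95.1 TPM (1.78 ± 0.16, adjusted p = 3e-08). EMX2 and HESX1 did not pass, with changes of 0.18 and -0.48, and EMX2 was at -0.26 without replicate 2 of D8 CT0.4.

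Diencephalic factors rose in 14 of 18 cases and fell in 1, with a median of 2.49. POU4F1, a factor of habenula and sensory neurons, had 73.2 and 66.4 TPM at D8 CT0.4 and 0.237 and 0.337 TPM at D8 CT0.0 (5.78 ± 0.30, adjusted p = 1.7e-12). DMBX1, a homeobox factor of diencephalon and midbrain, had 119 and 132 TPM against 1.43 and 1.33 TPM (5.73 ± 0.23, adjusted p = 2.6e-14). BARHL1, a homeobox factor of diencephalon and rhombic lip, had 30.5 and 74.3 TPM against 0.136 and 0 TPM (5.51 ± 0.24, adjusted p = 6.8e-14). In contrast to the roof plate markers, replicate 2 of D8 CT0.4 held more BARHL1 than replicate 1. IRX1 and NR2F2 rose by 3.44 ± 0.35 and 2.92 ± 0.21. RGMA, a guidance molecule, was the member that fell (-2.01 ± 0.15). Mean BARHL1 was under 0.3 TPM in each of the 8 other day 8 conditions. Its SE therefore understates the gap between its D8 CT0.4 libraries.

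Midbrain and isthmus factors gave 2 higher, 3 lower and 9 not called of 14, with a median of 0.09. The 2 that rose were DMBX1 and LMX1B, which stand in other lists as well. FGF8, the signal of the isthmus and of the anterior neural ridge, fell to 1.02 and 2.02 TPM at D8 CT0.4 against 52.1 and 61.3 TPM at D8 CT0.0 (-4.54 ± 0.27, adjusted p = 1.7e-11). EN1, which marks midbrain and anterior hindbrain, had 0.705 and 0.745 TPM against 0.0282 and 0 TPM and did not pass (0.77 ± 0.21), but was called higher with a pseudocount of 0.1 (2.87, adjusted p = 0.00021). Of 17 HOX and related genes of hindbrain and spinal cord, 15 were under 1 TPM in all 4 libraries and 1 was called, higher.

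Progenitors of dorsal interneurons gave 5 called higher of 7 tested, with a median of 2.38. OLIG3, a factor of the most dorsal progenitors, had 10.6 and 6.39 TPM at D8 CT0.4 and was listed at 0 in both D8 CT0.0 libraries, a difference in log2(TPM + 1) of 3.21 ± 0.36 (adjusted p = 5.3e-07). NEUROG1, a proneural factor, had 3.18 and 3.95 TPM at D8 CT0.4 and was listed at 0 in both D8 CT0.0 libraries. Neuron genes rose in 9 of 16 cases and fell in 1, with a median of 1.09. NHLH1, of newborn neurons, had 10.1 and 8.22 TPM at D8 CT0.4 and 0.488 and 0.747 TPM at D8 CT0.0 (2.65 ± 0.23, adjusted p = 1.3e-08), and GAP43, of growing axons, had 40.5 and 29.5 TPM against 5.42 and 6.18 TPM (2.39 ± 0.22, adjusted p = 2e-08). STMN2 and TUBB3, the most abundant of the neuron genes that did not pass, had changes of -0.16 and 0.42. Genes of neurons that leave the cortical hem rose in 5 of 10 cases (median 0.80), among them RELN, the secreted guide of cortical layering, with 10.6 and 7.42 TPM at D8 CT0.4 and 0.201 and 0.335 TPM at D8 CT0.0 (2.96 ± 0.25, adjusted p = 7.2e-09), and EBF3 (2.64 ± 0.24). The other 5 hem neuron genes did not pass, with changes from -0.53 to 0.34. RELN was lower at CT0.4 than at CT4.0RA, by 3.77 on the log2 scale. No gene of the hem neuron or neuron lists was called higher at CT0.4 than in all 8 other day 8 conditions.

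Neural progenitor genes shared by all regions went both ways, with 4 higher, 6 lower and 11 not called of 21 and a median of -0.16. SOX21, a SOX family B factor and the other gene the title names, had 7.97 and 13.7 TPM at D8 CT0.4 and 129 and 100 TPM at D8 CT0.0 (-3.32 ± 0.26, adjusted p = 1.8e-09). HES5, a repressor that NOTCH switches on, had 8.16 and 21.8 TPM against 156 and 157 TPM (-3.45 ± 0.33, adjusted p = 4.2e-08). SOX2, the progenitor factor, had 109 and 149 TPM against 414 and 386 TPM (-1.64 ± 0.10, adjusted p = 3.2e-11), and FABP7, of radial glia, had 85 and 66.9 TPM against 246 and 295 TPM (-1.83 ± 0.15). The cadherin CDH2 and the filament protein VIM, which neuroepithelium and mesenchyme both make, rose by 1.22 ± 0.06 and 1.28 ± 0.13. NES and HES4 did not pass (-0.75 and -0.95), although HES4 did without replicate 2 of D8 CT0.4 (-1.26).

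Genes of the FGF and ERK feedback loop fell in 7 of 18 cases and rose in 2, with a median of -0.79. SPRY1, an inhibitor that FGF signals induce, had 0.967 and 2.37 TPM at D8 CT0.4 and 77.5 and 78.6 TPM at D8 CT0.0 (-4.94 ± 0.16, adjusted p = 7e-16). ETV4, a transcription factor of the same response, had 1.93 and 2.84 TPM against 25.4 and 30.9 TPM (-3.11 ± 0.19, adjusted p = 2.6e-11). The 2 members that rose were receptors. FGFR2 had 462 and 394 TPM against 13.3 and 6.11 TPM at D8 CT0.0 (5.40 ± 0.21, adjusted p = 1.5e-14), and FGFR3 had 125 and 158 TPM against 14.1 and 15.6 TPM (3.16 ± 0.21, adjusted p = 1.2e-10). DUSP6, a phosphatase that ERK induces, was at 9.71 and 11.6 TPM at D8 CT0.4 and 15.5 and 11.1 TPM at D8 CT0.0, with overlapping libraries. Of 12 proliferation genes limma called none in either direction, and 6 had an unadjusted p under 0.05, all lower at D8 CT0.4 (median -0.18). CCNB1 and PCNA changed by -0.07 and -0.14.

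Markers of other cell types that the cultures could hold moved in part with the dorsal genes. Neural crest genes gave 3 higher and 3 lower of 16 tested (median 0.17), and their summed level was 219 and 183 TPM at D8 CT0.4 and 449 and 475 TPM at D8 CT0.0. TFAP2B, with 3.89 and 2.38 TPM at D8 CT0.4, was listed at 0 in both D8 CT0.0 libraries, SNAI2 rose by 1.63 ± 0.27 and the cadherin CDH6 by 2.99 ± 0.30. The crest-defining SOX10 and FOXD3 were at no more than 0.444 TPM in the 4 libraries, FOXD3 being called higher with a pseudocount of 0.1 (1.97), and TFAP2A at no more than 0.396 TPM in D8 CT0.4 and 1.96 TPM in D8 CT0.0. CDH11, another cadherin, fell by 2.96 on the log2 scale. Mesenchyme and meninges genes gave 3 higher and 1 lower of 9 (median 0.67), with a summed level of 173 and 147 TPM at D8 CT0.4 and 118 and 116 TPM at D8 CT0.0. COL3A1, a fibrillar collagen, had 89.1 and 66.6 TPM against 0.199 and 0.174 TPM (6.04 ± 0.24, adjusted p = 2.6e-14). COL1A1 and COL1A2, the collagens most abundant in mesenchyme, were at no more than 7.71 TPM and did not pass.

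Surface ectoderm and placode genes gave 3 higher and 1 lower of 14 tested (median -0.19), with a summed level of 358 and 276 TPM at D8 CT0.4 and 227 and 209 TPM at D8 CT0.0. TFAP2C, an AP-2 factor, had 56.5 and 41.7 TPM against 0.0288 and 0.0577 TPM at D8 CT0.0 (5.57 ± 0.22, adjusted p = 2.5e-14). KRT19, a keratin, had 95.9 and 59 TPM against 38.9 and 24.4 TPM (1.26 ± 0.25, adjusted p = 8e-04), below the call without replicate 1 of D8 CT0.4 (0.91) or replicate 2 of D8 CT0.0 (0.93). KRT8 and KRT18 did not pass. Of 10 mesoderm genes 3 were tested, and MEOX1, a somite factor, was the 1 called, at 5.42 and 5.3 TPM in D8 CT0.4 and 0.0904 and 0.648 TPM in D8 CT0.0 (2.25 ± 0.21, adjusted p = 3.1e-08). Of 10 tested genes of the ventral neural tube (median 0.14), 1 was called, lower. In the pluripotency list (median -0.10) 3 of 16 genes were called lower (DNMT3B, DPPA4 and L1TD1), while LIN28A stood at 650 and 618 TPM in D8 CT0.4 and 685 and 662 TPM in D8 CT0.0. Of 16 p53 and stress genes (median 0.20), ATF3 and GADD45A rose, by 1.33 ± 0.18 and 1.07 ± 0.15, with GADD45A below the call without replicate 2 of D8 CT0.0 (0.95). L1TD1 lost its call without replicate 1 of D8 CT0.4 (-1.32) or replicate 1 of D8 CT0.0 (-1.10). The part of these cell types and of stress in the dorsal changes was not tested.

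The largest falls were of mixed kinds, SPRY1 and FZD5 of the signalling genes among them. DLK1, an imprinted, secreted relative of the NOTCH ligands, had 16.6 and 19 TPM at D8 CT0.4 and 3194 and 2908 TPM at D8 CT0.0 (-7.34 ± 0.35, adjusted p = 3.9e-13). MPPED1, a metallophosphoesterase domain protein, had 0.355 and 0.548 TPM against 76.2 and 84.8 TPM (-5.81 ± 0.30, adjusted p = 1.7e-12). FZD5, a WNT receptor of the eye field and rostral forebrain, had 1.76 and 2.53 TPM against 174 and 200 TPM (-5.91 ± 0.16, adjusted p = 4.8e-17). Their 2 libraries per group were far apart from the other group in each case. CAPN6, a member of the calpain family, and IGFBP3, which binds insulin-like growth factors, were among the 10 largest falls of protein-coding genes, as were FEZF1, LHX2, SIX3 and SPRY1, with changes of -5.23 ± 0.19 and -5.15 ± 0.28. DLK1 was lower than at D8 CT0.0 at every CT dose, at 76.4 and 115 TPM at CT0.8 and at 4.2 and 3.58 TPM at CT4.0. The fall was smallest at CT1.0, at -3.76 on the log2 scale, so it did not deepen steadily with dose.

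Each day 8 condition was compared with D8 CT0.4 directly to find the genes unique to CT0.4, since comparisons with D8 CT0.0 share those control libraries. A gene counted as unique where D8 CT0.4 was called in the same direction against all 8 other day 8 conditions. This held for 363 genes higher at CT0.4 (1.29% of tested genes; 266 protein-coding, 1.71% of those) and for 25 lower (0.0886%; 20 protein-coding, 0.129%). With TMM scaling the counts were 285 higher and 46 lower. The 363 are 36.3% of the genes called higher against D8 CT0.0, and the 25 are 3.57% of those called lower. For 126 of the 363 the nearest other condition was CT0.8, for 64 it was CT0.0, for 50 IWP2 and for 46 CT1.0. Ribosomal protein genes held 27.0% and 27.3% of TPM at CT0.8, more than at D8 CT0.4, and the part of this in the margins was not tested. Set against D8 CT0.0 alone, 610 of the 1001 higher genes (60.9%) and 115 of the 700 lower genes (16.4%) were called in the same direction in none of the other 7 conditions. Of the unique genes, 69 of the 363 higher (19%) and 3 of the 25 lower (12%) were so called in at least 1 of the 7. For these, unique means an extreme level at CT0.4 and not a change found there alone. WNT1 and LMX1A, for instance, were also called higher at CT0.8 than at D8 CT0.0, by 6.99 and 3.36.

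The 10 protein-coding genes with the widest margin above the nearest other condition held a matrix protein, transcription factors and secreted signals. VIT, the matrix protein vitrin, had 75 and 52 TPM at D8 CT0.4 and 0.0375 and 0 TPM at D8 CT0.0, and lay 5.35 above CT0.8, its nearest condition, on the log2 scale. BARHL1 lay 5.27 above CT4.0RA, TFAP2C 4.81 above CT0.8 and LMX1A 4.25 above CT0.8. TAC1, the precursor of the neuropeptide substance P, had 62.8 and 40.5 TPM at D8 CT0.4 against 0.879 and 0 TPM at D8 CT0.0 and lay 4.73 above CT1.0. CCL2, a chemokine, had 125 and 79.5 TPM against 4.89 and 3.77 TPM and lay 4.13 above IWP2. SAMD11, a SAM domain protein, lay 4.44 above CT0.8, WNT4 4.74 above CT1.0, WNT2B 4.42 above CT0.8 and TTR 4.18 above CT1.0. In these 10 genes no library of another day 8 condition reached the level of either CT0.4 library. They were chosen for their wide margins, so this adds no support of its own.

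**Figure D4:**
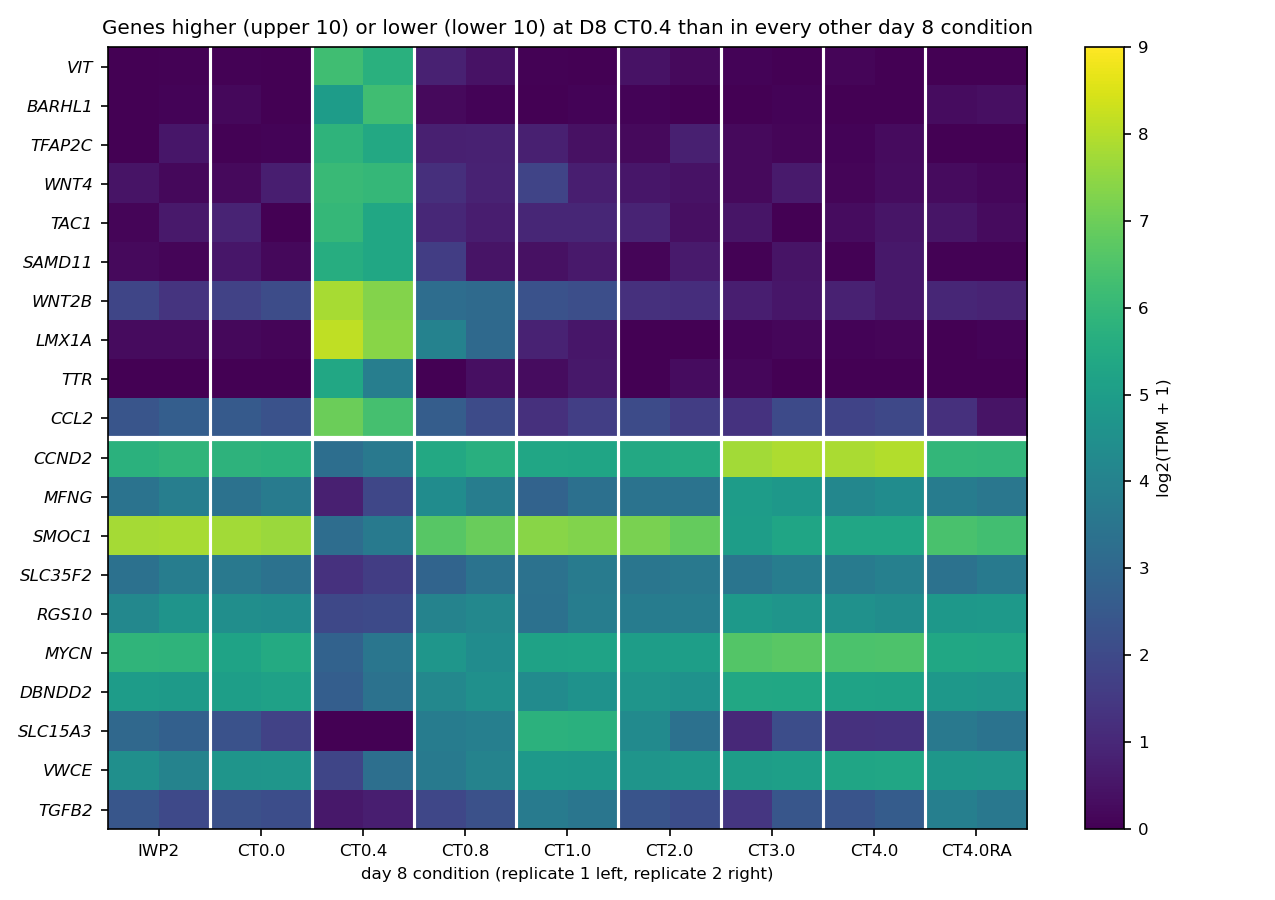
Level (colour, log2(TPM + 1)) in each of the 18 day 8 libraries (columns, by condition) of the 10 protein-coding genes that stand highest above, and the 10 that stand farthest below, all other day 8 conditions at CT0.4 (rows). The upper 10 are bright at CT0.4 alone, and the lower 10, led by CCND2, MFNG and SMOC1, are dark there.

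Fewer genes were lower at CT0.4 than everywhere else. CCND2, a G1 cyclin of neural progenitors, had 8.58 and 11.5 TPM at D8 CT0.4 and 54.8 and 52.2 TPM at D8 CT0.0, and was lowest elsewhere at CT1.0 with 39.5 and 38 TPM. MYCN, a growth-promoting transcription factor, had 6.12 and 10.5 TPM against 36.5 and 44.3 TPM at D8 CT0.0 (-2.19 ± 0.17, adjusted p = 1.1e-09). SMOC1, a secreted calcium-binding matrix protein that inhibits BMP signalling in frog embryos, had 8.24 and 11.9 TPM against 215 and 198 TPM (-4.25 ± 0.18, adjusted p = 5e-14), and its next lowest condition was CT3.0 at 31.5 and 38 TPM. MFNG, which glycosylates NOTCH, had 0.736 and 2.73 TPM against 9.52 and 12.2 TPM. The others of the 10 widest margins were SLC35F2, RGS10, DBNDD2, SLC15A3, VWCE and TGFB2, with margins between -1.70 for SLC35F2 and -1.25 for TGFB2. SLC15A3 was listed at 0 in both D8 CT0.4 libraries.

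Several genes that rose strongly against D8 CT0.0 were not unique to CT0.4. Beside GDF7, these were SP5, which differed from CT0.8 by 0.26 (adjusted p = 0.83), ID3, which lay 0.43 above CT3.0, MSX2, which lay 0.48 above CT0.8, RSPO2, which lay 0.45 above CT0.8, and FZD10, a WNT receptor with 49.2 and 40.8 TPM at D8 CT0.4, 52 and 56.1 TPM at CT4.0 and 0.6 and 0.27 TPM at D8 CT0.0. By list, unique genes made up 8 of the 12 roof plate factors called higher, all 8 WNT ligands, 4 of 5 BMP and GDF ligands, 4 of 5 choroid plexus genes, 6 of 14 diencephalic factors, 3 of 8 WNT feedback genes and 3 of 9 BMP response genes. Over all genes called higher the share was 36.3%, which the last 3 of these lists lie near.

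The 2 D8 CT0.4 libraries differed in the levels of several lists. Replicate 1 exceeded replicate 2 for 658 of the 1001 genes called higher and for 11905 of all 28221 tested genes. It did so for 11 of the 12 roof plate factors, 5 of 5 BMP and GDF ligands, 7 of 8 WNT ligands and 4 of 5 choroid plexus genes. Replicate 2 was the higher one for 10 of 14 diencephalic factors and 4 of 5 dorsal interneuron genes. Other lists leaned either way, with replicate 1 the higher one for 8 of 9 neuron genes, 7 of 9 BMP response genes and 1 of 4 neural progenitor genes. Lists closer to even were WNT feedback genes (4 of 8), R-spondins and WNT release factors (3 of 5) and genes of hem neurons (3 of 5). BARHL2, a homeobox factor of both the diencephalic and the dorsal interneuron lists, had 2.12 TPM in replicate 1 and 9.48 TPM in replicate 2. With 2 libraries this is a description and no test was made of it.

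At day 4 fewer genes were called. D4 CT0.4 had 186 genes called higher (0.659%) and 443 lower (1.57%) than D4 CT0.0, or 243 and 248 with TMM scaling (trimmed mean of M values), which removes a median of -0.105 over all tested genes. Of the 1001 genes called higher at day 8, 84 (8.39%) were called higher at day 4 as well and 26 (2.6%) were called lower. Of the 700 called lower at day 8, 101 (14.4%) were called lower at day 4 and 11 (1.57%) higher. In a test of the day 8 change minus the day 4 change, the difference was called positive for 1436 genes (5.09%) and negative for 472 (1.67%). With TMM scaling, which removes a median of 0.126, the counts were 897 and 619. The difference is signed and does not rank the size of the effects, so DLK1, which fell further at day 8, counts as negative (-5.88). A called day difference in the direction of the day 8 change was found for 711 of the 1001 higher genes (71%) and 298 of the 700 lower genes (42.6%). Among the genes unique to CT0.4 it was found for 321 of the 363 higher (88.4%) and 17 of the 25 lower (68%).

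**Figure D5:**
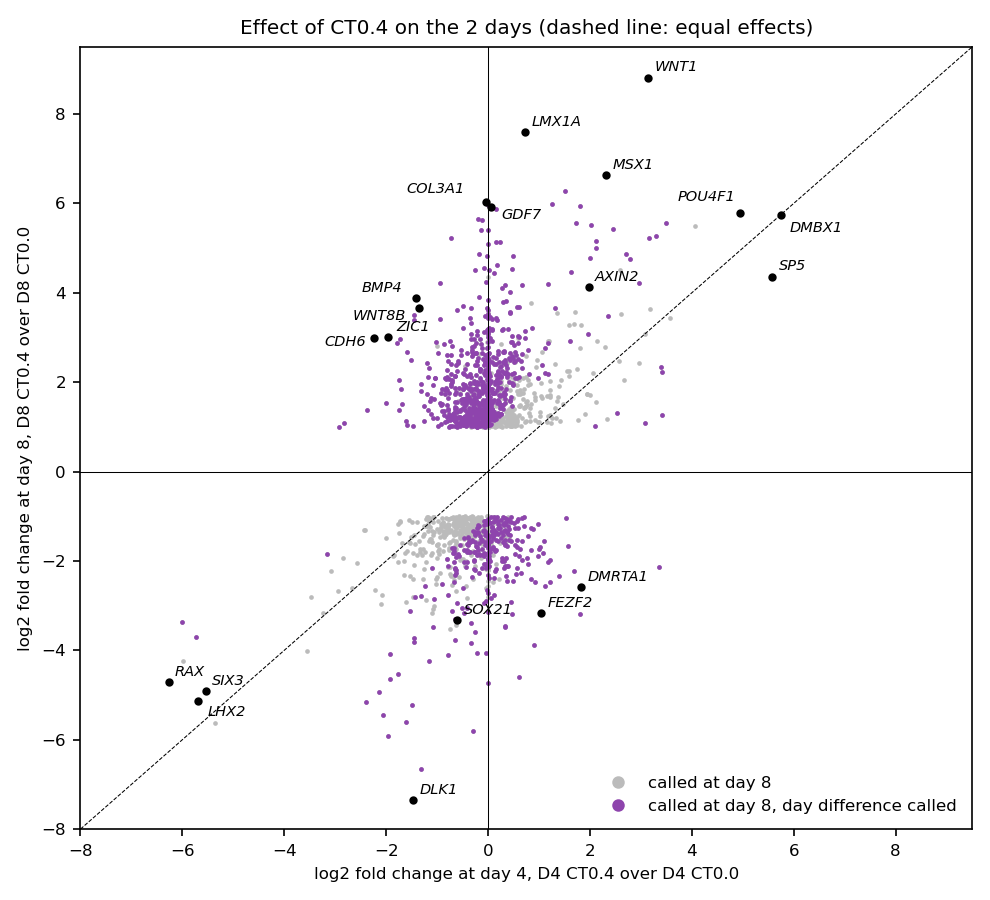
Change at CT0.4 against CT0.0 at day 8 (vertical axis, log2 scale) and at day 4 (horizontal axis, log2 scale) for the genes called at day 8, 1 point a gene, purple where the difference between days was called, with an equal-effect line. LMX1A, GDF7 and COL3A1 lie near 0 on the day 4 axis, SP5, DMBX1, SIX3 and LHX2 lie near the line, and BMP4, WNT8B, ZIC1 and CDH6 lie on opposite sides of 0 on the 2 days.

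The markers divided by day. WNT1 was up already at day 4, with a mean of 8.42 TPM at D4 CT0.4 and 0.0604 TPM at D4 CT0.0 (3.14, adjusted p = 4.7e-09), and so were MSX1 (2.32) and AXIN2 (1.98). LMX1A (0.73), GDF7 (0.05) and TTR (0.17) did not pass at day 4. The diencephalic factors POU4F1 and DMBX1 were at 4.95 and 5.75 on day 4 and SP5 at 5.58, and their changes did not differ between the days by the call. On the side of loss, SIX3 (-5.55), LHX2 (-5.70) and RAX (-6.27) were gone by day 4, whereas DLK1 (-1.47) had most of its change later. WNT8B, BMP4, ZIC1, RSPO3 and CDH6 were called lower at day 4 (-1.35, -1.41, -1.97, -1.46 and -2.23) and higher at day 8, and DMRTA1, a factor of the dorsal telencephalon, was called higher at day 4 (1.83) and lower at day 8 (-2.59 ± 0.25).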

How the data were processed

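Poly(A) RNA libraries of H9 cells were analysed from the deposited table, in which the authors give a TPM value per gene. The submitters' processing notes name Salmon 0.8.2, CASAVA 1.7 and, as genome build, hg38. Their roles and settings are not stated. Of 58219 genes, 43661 were above 0 in at least 1 library, and 57836 identifiers matched GENCODE release 29 without their version. TPM has a fixed total, so genes that take more RNA lower the values of all others.

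A gene was tested if 2 or more of the 38 libraries held 1 TPM or more (28221 genes). On log2(TPM + 1), 19 group means were fitted with limma 3.58.1 (trended eBayes, R 4.3.3, 19 residual degrees of freedom). The procedure was tested on simulated data. The comparison, its members and the 27 gene lists were chosen with earlier results of these data known. Some genes are not reported here, though they count in the lists. By rule, the text names genes from the 6 markers and both title genes, the 10 largest changes per direction, per list the 4 largest calls and the 2 most abundant members not called, the 10 widest margins of unique genes per direction, and the 5 largest day differences per direction. Other named genes were chosen after their values were seen: MSX2, PAX7, ZIC1, BMP7, WNT5B, WNT7B, WNT9A, WNT9B, RSPO1, NKD1, NKD2, ZNRF3, AQP1, CLIC6, NTN1, NEUROG1, EN1, OTX1, RAX, NR2F2, RGMA, SOX2, CDH2, VIM, SOX10, FOXD3, TFAP2A, SNAI2, COL1A2, DUSP6, FZD10, DKK1 and SP8, and the genes named with the 5 lists under other observations.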

Additional observations from a re-analysis of the deposited data

Results flagged for a closer look

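The effect of CT0.4 against CT0.0 differed between day 8 and day 4, by the limma test of that difference, for the genes below, which are given as the day 8 change minus the day 4 change on the log2 scale. Among roof plate and hem genes the differences were 6.87 for LMX1A, 5.88 for GDF7, 5.67 for WNT1, 4.32 for MSX1, 4.99 for ZIC1, 5.84 for WNT2B, 5.70 for WNT3A, 5.02 for WNT8B and 4.85 for RSPO3. For the BMP branch they were 5.29 for BMP4 and 5.16 for ID1, for choroid plexus 4.45 for TTR, and for WNT feedback 2.14 for AXIN2. For COL3A1, CDH6, TAC1 and VIT the differences were 6.08, 5.23, 5.95 and 5.96.

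Differences of the other sign were found for DLK1 (-5.88), MPPED1 (-5.52), DMRTA1 (-4.42), FEZF2 (-4.21), HES5 (-3.77) and SOX21 (-2.72). RAX had a difference of 1.55, with changes of -4.72 at day 8 and -6.27 at day 4. No group had enough libraries to look for a single outlying one.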

How the results depend on the processing

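The number of genes called between D8 CT0.4 and D8 CT0.0 was 1701 and ranged from 1301 (at least 5 TPM in at least 2 libraries) to 1888 (pseudocount of 0.1), with 1512 under TMM scaling and 1473 to 1888 when 1 library was left out. The count of genes unique to CT0.4 was 388 and ranged from 295 to 418 over the other settings. Of these, those lower at CT0.4 were 25, but 65 with a pseudocount of 0.1, 49 when replicate 2 of D8 CT0.4 was left out and 46 under TMM scaling. Leaving out 1 library gave 351 to 478 unique genes, and 257 and 308 of the 388 were among those found without replicate 1 and without replicate 2 of D8 CT0.4. Day differences numbered 1503 to 2055 and day 4 calls 472 to 817 in the same way.

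With the replicate number as a block the counts were 1702, 388, 1907 for the day difference and 625 at day 4. Deviations of same-numbered D8 CT0.4 and D8 CT0.0 libraries had a correlation of -0.0427, and none of 36 pairs of day 8 groups exceeded 0.1, so the numbers are not taken as pairing the libraries.

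Over the named genes and all settings, 1704 values kept direction and call, 11 lost the call, 11 gained it and 2 changed sign. With 1 library left out, TFAP2A ranged from -1.17 to 0.082 (without replicate 2 of D8 CT0.0) and EMX2 from -0.26 (without replicate 2 of D8 CT0.4) to 0.62. The losses were in GADD45A, KRT19, L1TD1, NOTCH2, SOSTDC1 and SP8. Depth is unknown in TPM, and genes near 1 TPM are the least certain.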

Other observations

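Among 5 further lists drawn up after the values were seen, genes of motile cilia were called higher in 9 of 26 tested cases at D8 CT0.4. The median was 0.69, and 5 were unique to CT0.4. Over all tested genes 3.55% were called higher. The other 17 cilia genes did not pass, with changes from -0.57 to 0.99. FOXJ1, the factor that switches on motile cilia genes, had 39.4 and 27.6 TPM at D8 CT0.4 and 0.48 and 0.588 TPM at D8 CT0.0 (4.47 ± 0.22, limma adjusted p = 5.9e-13). GMNC, which acts early in multiciliated cells, had 6.93 and 5.06 TPM at D8 CT0.4 and was listed at 0 in both D8 CT0.0 libraries. RFX4, a ciliary and dorsal midline factor in the mouse, rose by 4.19 ± 0.26, and SPAG6, of the axoneme, by 2.48 ± 0.26. Levels of FOXJ1, GMNC, RFX4 and SPAG6 did not overlap between groups, as for 25.2% of all tested genes in that direction. RFX4 at CT0.4 lay 0.34 above CT2.0 and was not unique to CT0.4.

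All 4 genes listed for the imprinted DLK1-DIO3 domain were called lower at D8 CT0.4, and any other transcripts of the domain were not listed. MEG3, a long noncoding RNA expressed from the maternal copy, had 0.103 and 0.241 TPM at D8 CT0.4 and 20.5 and 17.8 TPM at D8 CT0.0 (-4.10 ± 0.34). DIO3, a thyroid hormone deiodinase from the paternal copy, had 0.486 and 0.124 TPM against 19.3 and 21.7 TPM (-4.05 ± 0.21). RTL1, which overlaps an antisense transcript, fell to 0 and 0.0188 TPM against 2.64 and 2.9 TPM. DLK1 is described above, so genes read from either parental copy were low together.

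NOTCH pathway genes fell in 7 of 20 cases and rose in 2 (median -0.12). DLL1, a NOTCH ligand, had 28.3 and 63.8 TPM at D8 CT0.4 and 178 and 169 TPM at D8 CT0.0 (-2.00 ± 0.31), NRARP, a NOTCH-induced inhibitor, fell by 1.73 on the log2 scale and LFNG, which glycosylates NOTCH, by 1.52. NOTCH2 rose by 1.07 ± 0.11, below the call without replicate 1 of D8 CT0.4 (0.87). Frizzled receptors and co-receptors gave 2 higher and 5 lower of 15, with FZD10 up (5.01 ± 0.18) and FZD5 down (-5.91 ± 0.16). Eph receptors and ephrins gave 5 higher and 2 lower of 22, led by EPHA7, a guidance receptor, at 426 and 332 TPM in D8 CT0.4 and 13.3 and 12.2 TPM in D8 CT0.0 (4.78 ± 0.18).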
